A study of Mus musculus with 3 samples.

Results

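The transcript variants of Ptprc, which encodes the leukocyte surface phosphatase CD45, and of Cd44, which encodes the hyaluronan receptor CD44, were examined in 3 RNAseq libraries from mice with renal tumors. All transcripts that the mouse mm9 annotation assigns to either gene were taken, each kept apart. They were 19 transcripts, 5 of Ptprc and 14 of Cd44, of 88278 annotated transcripts of 36835 genes in the table of levels. Where an identifier had several rows, the first row with a value for each of the 3 libraries was used, which is called the complete row below.

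The study asked whether Foxp3 mRNA is present in 3 sorted cell subsets of BALB/C mice carrying intra-kidney tumors of Renca, a mouse renal carcinoma cell line, of which the study's methods give a derivative marked with Cherry and luciferase (Ch+ L+) for these tumors. Macrophages of type 1, called M1, and of type 2, called M2, were sorted from 30 pooled tumors and CD4 T cells from 4 pooled spleens of tumor-bearing mice, although one label of the CD4 T cells names tumors as their origin. The labels give both day 14 and day 16 after inoculation for the harvest, and no untreated animals or other alleles are part of these groups. There was 1 library for each subset, so that no difference below has a replicate check, and no test, error or p-value can be given. Antibodies against CD45.2 (an allelic form of CD45), TCRbeta, CD4, F4/80 and CD11b were used for sorting, so the presence of Ptprc in each library follows from the sort.

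Levels are in FPKM, which is the number of fragments of a transcript divided by its length in kilobases and by the mapped reads of the library, so that transcripts and genes can be set side by side. Depth is not part of FPKM. It was estimated from the lowest levels as 61400000 fragments for the library labelled M1, 59700000 for M2 and 73000000 for CD4. Marker genes went against 2 of the labels. All 10 T-cell markers were highest in that labelled M2, with summed levels of 1.81 FPKM in M1, 1428 in M2 and 2.25 in CD4. All 10 macrophage markers were lower in the library labelled M2, with sums of 2279, 314 and 6046 FPKM in the same order. The 4 markers of naive T cells, among them Ccr7, Lef1 and Tcf7, were also highest in M2. Sums over markers of neutrophils were 47.3, 195 and 10.4 FPKM, of fibroblasts 6.01, 8.83 and 28.8, and of endothelium 3.30, 35.9 and 3.52. The M2 sum of endothelium was mostly Pecam1 at 35.0 FPKM, with Cdh5 at 0.533 and Kdr at 0.350. That of neutrophils was mostly S100a8 at 84.5 and S100a9 at 110, with Ly6g at 0, Mpo at 0.822 and Elane at 0.351. With all rows of each identifier summed, Elane was at 366, 723 and 336 FPKM. Cd5, a T-cell marker, then went from 81.3 to 11066.5 FPKM in M2, and the macrophage marker C1qb from 1481 to 6644 in CD4. Sums of all rows can thus lie far from complete rows, and which is closer to the true level was not tested. The part of neutrophils, fibroblasts and endothelium in the levels below was also not tested. The libraries are therefore called by their labels throughout, and each direction below rests on these labels.

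CD45 removes an inhibitory phosphate from kinases of the Src family and thereby sets the threshold of antigen receptor signalling. Its extracellular part is varied by exons called A, B and C, which B cells mostly keep, naive T cells keep in part, and activated T cells and many myeloid cells skip, which gives the short form RO. CD44 binds hyaluronan and other matrix molecules, and leukocytes mostly make its standard form without variable exons, while epithelia and many carcinomas include some of the variable exons v1 to v10.

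Ptprc (ENSMUSG00000026395) lies on the minus strand of chromosome 1, chr1:139959438-140071882 in build NCBIM37, which is also called mm9. Exons A, B and C are exons 4, 5 and 6 of the transcript Ptprc-201, and exon 7 is also optional in the annotation. The lengths of exons A, B, C and 7 were 129, 147, 141 and 72 bases, each a multiple of 3, so that skipping any of them keeps the reading frame. The 4 exons are shown here because the annotated variants differ by them, with the strand of the mRNA written 5′ to 3′ from the reference genome.
Ptprc exon 4 (A), chr1:140019033-140019161: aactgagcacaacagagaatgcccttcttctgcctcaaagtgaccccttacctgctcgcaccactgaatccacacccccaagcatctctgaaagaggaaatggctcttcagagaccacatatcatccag
Ptprc exon 5 (B), chr1:140016597-140016743: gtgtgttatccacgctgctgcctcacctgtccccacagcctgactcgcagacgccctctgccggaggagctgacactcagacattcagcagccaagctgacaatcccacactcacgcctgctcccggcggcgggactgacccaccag
Ptprc exon 6 (C), chr1:140014331-140014471: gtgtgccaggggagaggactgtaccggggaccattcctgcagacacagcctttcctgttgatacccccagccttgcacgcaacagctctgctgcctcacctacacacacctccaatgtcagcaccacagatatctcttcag
Ptprc exon 7, chr1:140013531-140013602: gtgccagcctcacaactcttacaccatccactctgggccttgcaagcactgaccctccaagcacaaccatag

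The 4 exons held 50.4%, 63.9%, 56.7% and 55.6% G and C bases, in the order A, B, C and 7. Exon 3 is joined to a different exon in each class of variant. The 30 bases across each of these junctions are shown because Ptprc-203, Ptprc-204 and Ptprc-205 each hold 1 that no other variant has. Ptprc-203 differs from the others also by its shorter last exon and the lack of exon 7. The capitals mark the first 15 bases after the junction.
Exon 3 to exon 4, held by Ptprc-201 and Ptprc-202: ctacacccagtgatgAACTGAGCACAACAG
Exon 3 to exon 5, held by Ptprc-205: ctacacccagtgatgGTGTGTTATCCACGC
Exon 3 to exon 7, held by Ptprc-204: ctacacccagtgatgGTGCCAGCCTCACAA
Exon 3 to exon 8, held by Ptprc-203: ctacacccagtgatgCTACCACAACGAAGC

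Ptprc-201 (ENSMUST00000027645, 5664 bases in 33 exons) and Ptprc-202 (ENSMUST00000074797, 5814 bases in 46 annotated exons, some of them very short) hold A, B, C and exon 7. Ptprc-205 (ENSMUST00000112038, 5535 bases) lacks A and holds B, C and exon 7. Ptprc-204 (ENSMUST00000112036, 5247 bases) lacks A, B and C, which is the structure of the RO form, and holds exon 7. Ptprc-203 (ENSMUST00000081416, 4609 bases) lacks all 4 and has a shorter last exon. The 4609 bases of Ptprc-203 are also part of both others with a level above 0, and they make up 87.8% of Ptprc-204 and 83.3% of Ptprc-205. Most Ptprc fragments therefore fit several variants, and Cufflinks, the program that estimated the levels, divided them by a model.

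**Figure D1:**
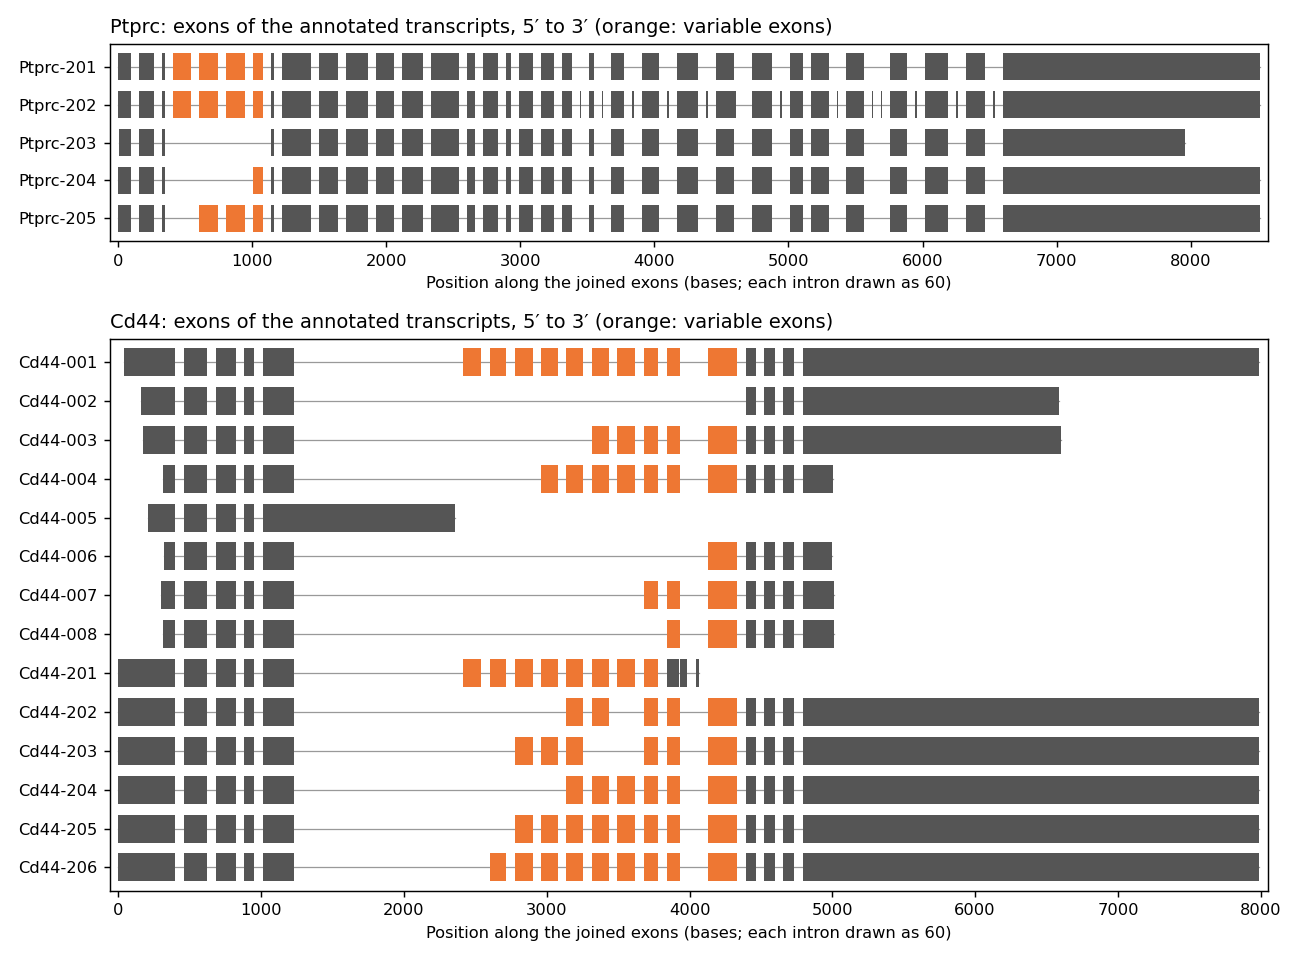
Exons of the 5 Ptprc and 14 Cd44 transcripts in the annotation, drawn 5′ to 3′ to scale in bases with each intron shortened to 60 bases. Orange boxes are the variable exons (A, B, C and 7 of Ptprc, v1 to v10 of Cd44) and grey boxes all other exons, including the shortened v9 of Cd44-201. Ptprc-203, Ptprc-204 and Ptprc-205 hold none, 1 and 3 of the 4 orange exons, and Cd44-002 holds none of the 10.

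Ptprc was at 193 FPKM in the library labelled M1, 285 in M2 and 125 in CD4, as the sum over its complete rows. These levels were above those of 98.7%, 99.4% and 97.9% of the genes with a level above 0 in the same libraries, which were 18269, 19063 and 18346 genes. In complete rows Ptprc was thus among the highest genes in all 3, highest in M2 and lowest in CD4, an order that has no replicate spread to be read against. At the estimated depths its levels correspond to about 59300, 85700 and 46200 fragments. With 1 RNA sample from each pool of sorted cells, a smaller share of cells with the transcript and less of it in each cell cannot be told apart.

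The ratio of Ptprc between M2 and CD4 was 2.28, which is 1.18 as a log2 ratio of FPKM + 1, and passed the size of 1 that is used here to count genes. Of all 36835 genes, 5.85% were higher in M2 than in CD4 by a log2 ratio of at least 1, and 15.9% of the 6732 genes with at least 10 FPKM in either library. A ratio as large in size as that of Ptprc, in either direction, was found in 27.7% of those 6732 genes. The ratio between M2 and M1 was 1.48 (log2 0.56), and 53.0% of the 6715 genes with at least 10 FPKM in either had a ratio as large in size. The ratio between CD4 and M1 was 0.647 (log2 -0.62), matched or exceeded in size by 22.5% of 6031 genes. Neither passed the size of 1, which 5.73% of all genes did as higher in M2 than in M1 and 2.28% as lower in CD4 than in M1. With the rows that are not complete added (described below), the log2 ratio between M2 and M1 became 1.52 and that between CD4 and M1 became 0.15, which turned its direction.

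Only Ptprc-203, Ptprc-204 and Ptprc-205 had a complete row above 0 in any library. Ptprc-204, the RO form with exon 7, was at 119 FPKM in M1, 125 in M2 and 90.1 in CD4. It was the leading transcript in each library, with 61.7% of the Ptprc FPKM in M1, 43.9% in M2 and 72.2% in CD4. Its level varied little compared with the other variants, with log2 ratios of 0.07 between M2 and M1, 0.47 between M2 and CD4 and -0.40 between CD4 and M1.

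Ptprc-203, which also lacks A, B and C, was at 73.9 FPKM in M1, 113 in M2 and 34.8 in CD4. Its share was 38.3%, 39.8% and 27.8% in the same order. Its level was highest in M2, at 3.26 times that of CD4 and 1.53 times that of M1, so that it differed more between libraries than Ptprc-204 did. The transcripts with exon 7 together made up 61.7%, 60.2% and 72.2% of Ptprc in M1, M2 and CD4. In complete rows, transcripts lacking A, B and C made up 100% of the Ptprc FPKM in M1 and CD4. For CD4 this leaves out rows of unknown exon content, which held 41.8% of its Ptprc FPKM with all rows (described below).

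Ptprc-205, the form with exons B and C, was at 46.2 FPKM in the library labelled M2 and listed at 0 in M1 and CD4. It held 16.2% of the Ptprc FPKM in M2, which is also the share of Ptprc with exon B and with exon C there. Exon A was in no complete row above 0 in any library, since Ptprc-201 and Ptprc-202 were listed at 0 in all 3. The library labelled M2 is the one in which all T-cell and naive T-cell markers were highest. Of 5 B-cell markers, 3 were higher there than in M1 and in CD4 by a log2 ratio of at least 1, among them Cd79a at 18.2 FPKM and Ms4a1 at 13.5, while Cd79b and Pax5 were listed at 0 in complete rows and Pax5 was at 6.49 FPKM with all rows. The part of B cells in the level of Ptprc-205 was not tested.

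At the estimated depth the level of Ptprc-205 corresponds to 794 fragments over the 288 bases of exons B and C in M2. A level of 3 fragments over these bases would be 0.170 FPKM in M1 and 0.143 in CD4, for counting error only. A level listed at 0 is a result of the model and not a count of 0. Hnrnpa1 and Sfpq, which encode abundant RNA-binding proteins, were listed at 0 in the complete rows of all 3 libraries. The sums of all their rows were 52.2 and 78.7 FPKM in M1, 53.4 and 78.6 in M2, and 47.1 and 26.8 in CD4.

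**Figure D2:**
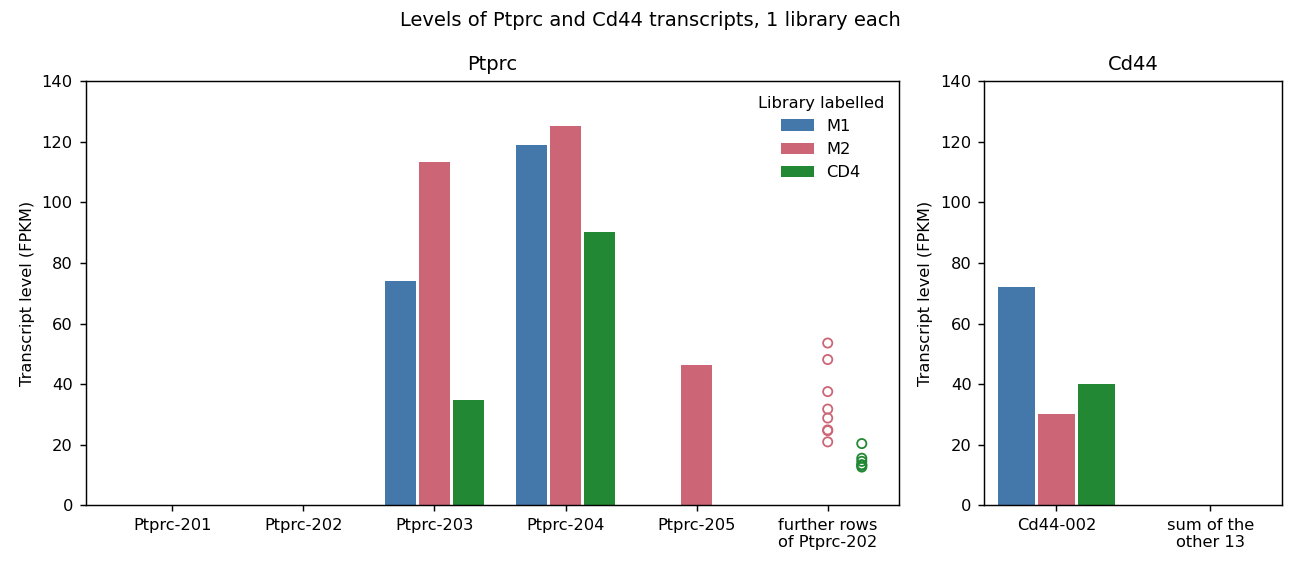
Level of each transcript in FPKM (vertical axis, same scale in both panels) in the libraries labelled M1, M2 and CD4, with 1 library each and therefore no error bars. Bars are complete rows and open circles are the single further rows of Ptprc-202 that are above 0, 8 in M2 and 6 in CD4. Ptprc-205 has a bar only in M2, at 46.2 FPKM, and Cd44-002 is the only Cd44 transcript with bars.

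The identifier of Ptprc-202 had 20 rows in the table, and 51 of 92519 identifiers (0.0551%), itself included, had at least as many. None of the other 4 Ptprc identifiers and none of the 14 Cd44 identifiers had more than 1 row. Of its 19 further rows, each had a value in 1 library and a dash in the other two. The single row of M1 was listed at 0. In M2, 8 of 10 were above 0, at 48.1, 31.8, 24.7, 21.0, 37.5, 53.6, 24.9 and 28.8 FPKM. In CD4, 6 of 8 were above 0, at 13.2, 12.7, 15.6, 20.4, 13.4 and 14.5 FPKM. Every single M2 row above 0 was thus higher than every single CD4 row, at the closest by 21.0 against 20.4 FPKM. The rows are not matched between libraries and are not replicates, so this order is a description only.

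These rows summed to 270 FPKM in M2 and 89.8 in CD4. They made up 48.7% and 41.8% of all Ptprc FPKM in those libraries and 0% in M1. With them, Ptprc was at 193 FPKM in M1, 555 in M2 and 215 in CD4. The table does not say which exons the rows hold, so they cannot be assigned to forms with or without A, B and C. If they all had the exons of Ptprc-202, exon A would be in 48.7% of Ptprc in M2 and exons B and C in 57.0%, against 41.8% for each of the 3 in CD4. If none held them, exons B and C would be in 8.32% of Ptprc in M2. The shares given above for M2 and CD4 therefore hold for the complete rows alone, while those of M1 do not change.

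The shift in variant use between libraries was measured by the share distance, which is 0 where all shares are equal and 1 where no variant is shared. For Ptprc it was 0.177 between M2 and M1, 0.282 between M2 and CD4 and 0.105 between CD4 and M1. Among genes with at least 2 transcripts and at least 10 FPKM in both libraries, 18.5% of 3047, 10.4% of 3026 and 18.6% of 3410 genes had a larger distance. The Ptprc distances were thus above the medians of 0.0096, 0.0104 and 3.51e-05, and below 0.5 in each pair. A distance of at least 0.5 was found in 2.59%, 2.58% and 1.52% of the genes. The leading Ptprc transcript was the same in all 3 libraries, whereas it differed in 8.24% of the genes between M2 and M1, in 8.76% between M2 and CD4 and in 6.42% between CD4 and M1. With all rows summed by identifier, the Ptprc distances were 0.570, 0.194 and 0.418, and the leading identifier in M2 was then Ptprc-202. This sum treats the further rows of Ptprc-202 as 1 variant shared by M2 and CD4, although the rows are not matched between libraries. The distance between M2 and CD4, the largest in complete rows, became the smallest under that treatment, so no likeness of these libraries is read from it.

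**Figure D3:**
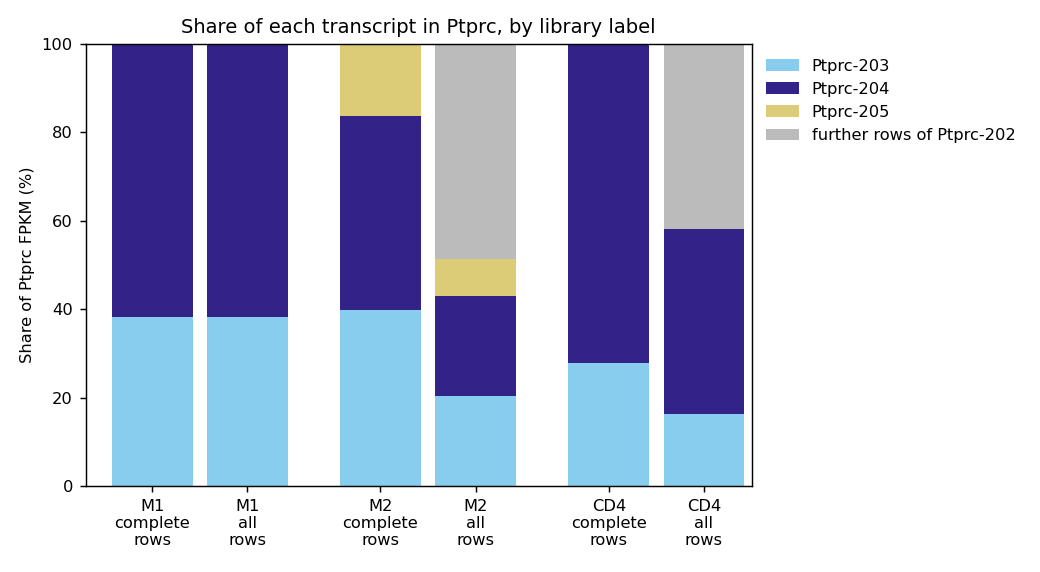
Share of each transcript in the Ptprc FPKM (vertical axis, percent) in the libraries labelled M1, M2 and CD4, 1 library each, from complete rows (left bar of each pair) and from all rows (right bar). Ptprc-205 appears in M2 alone, at 16.2% of the complete rows. The further rows of Ptprc-202, of unknown exon content, take 48.7% of the M2 bar and 41.8% of the CD4 bar when all rows are used.

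Cd44 (ENSMUSG00000005087) lies on the minus strand of chromosome 2, chr2:102651298-102741822 in the same build. Between 5 constant exons at its 5′ end and 4 at its 3′ end, the annotation places 10 variable exons. Of the 14 transcripts, 12 hold at least 1 of them, from the single v10 of Cd44-006 to all 10 in Cd44-001. Exon v10 is in 11 transcripts, v8 and v9 in 10 each, and v1 in 2. Cd44-002 (ENSMUST00000099673, 2848 bases in 9 exons) has the structure of the standard form with none, and Cd44-005 is a retained intron that ends before the variable exons. The most widely held variable exon and the junctions that separate the standard form from the others are shown, with capitals for the first 15 bases after a junction.
Cd44 exon v10, chr2:102671487-102671693: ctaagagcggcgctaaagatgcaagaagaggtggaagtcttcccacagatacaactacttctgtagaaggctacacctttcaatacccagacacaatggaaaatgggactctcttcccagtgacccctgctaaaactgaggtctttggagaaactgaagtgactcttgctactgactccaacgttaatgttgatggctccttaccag
Exon 5 to exon 16, held by Cd44-002: gcaccttggccaccaGAGATCGAGACTCAT
Exon 5 to exon v10, held by Cd44-006: gcaccttggccaccaCTAAGAGCGGCGCTA
Exon v10 to exon 16, held by 11 transcripts: atggctccttaccagGAGATCGAGACTCAT

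Cd44-002 was at 72.1 FPKM in the library labelled M1, 30.2 in M2 and 40.2 in CD4. It held 100% of the Cd44 FPKM in each library. The other 13 transcripts, among them all 12 with a variable exon, were listed at 0 in all 3, so that the share of Cd44 with a variable exon was 0% in each. The same distribution, with 1 transcript holding all FPKM in all 3 libraries, was found in 45.4% of 2857 genes with at least 2 transcripts and in 22.9% of 441 genes with at least 10. All 14 transcripts share 673 bases, which is 23.6% of Cd44-002. Even so, 0 bases of Cd44-002 are in no other Cd44 transcript, so each of its bases is also part of another variant. Of its 8 junctions, only 1, that of exon 5 to exon 16, is in Cd44-002 alone. The share of 100% therefore also rests on how the model divided the fragments.

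The level of Cd44, which is that of Cd44-002, was above 95.8%, 89.8% and 92.0% of the genes above 0 in M1, M2 and CD4. It corresponds to about 12600, 5140 and 8360 fragments at the estimated depths. Over the 207 bases of exon v10, 3 fragments would be 0.236 FPKM in M1, 0.243 in M2 and 0.199 in CD4. Cd44 was lower in M2 than in M1, at 0.419 times its level (log2 -1.23), which passed the size of 1. Of all genes, 4.9% were lower in M2 than in M1 by as much, and 17.2% of those with at least 10 FPKM in either. The ratio was 0.752 between M2 and CD4 (log2 -0.40) and 0.557 between CD4 and M1 (log2 -0.83), and neither passed the size of 1. A ratio as large in size was found in 65.3% of 6732 genes for the first of these and in 16.4% of 6031 genes for the second.

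The order of the libraries thus differed between the 2 genes. Cd44 was highest in M1 and lowest in M2, while Ptprc was highest in M2 and lowest in CD4 in complete rows. Ptprc was at 2.68 times the level of Cd44 in M1, 9.43 times in M2 and 3.11 times in CD4. With all rows these ratios were 2.68, 18.4 and 5.34, and Ptprc was lowest in M1. Markers of epithelium, a source of Cd44 with variable exons, were present in all libraries with sums of 87.3, 105 and 46.6 FPKM over 6 genes in M1, M2 and CD4. They did not share 1 order, since Cdh1, which encodes E-cadherin, was at 48.2 FPKM in M1, 6.69 in M2 and 3.84 in CD4, whereas the keratin gene Krt8 was at 23.3, 54.6 and 23.3, Krt18 at 9.51, 35.8 and 14.8, and Pax8 at 3.83, 7.24 and 3.85. Their part in the level of Cd44 was not tested. The splicing factors Esrp1 and Esrp2, which promote inclusion of Cd44 variable exons in epithelia, were listed at 0 in every row of all 3 libraries.

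The genes around CD45 were taken from a list of 16, of which Syk was not analysed here. Of the other 15, 8 were higher in M2 than in M1 by a log2 ratio of at least 1 and 5 were lower, with a median of 1.12 against 0 for all genes. The background was 5.73% of all genes higher and 4.9% lower. Compared with CD4, 7 were higher in M2 and 4 lower, with a median of 0.34, against 5.85% and 5.17% of all genes. Between CD4 and M1, 1 was higher in CD4 and 2 lower, with a median of 0, where 2.2% and 2.28% of all genes were. As 14 of the 15 reached at least 10 FPKM in some library, the shares among genes at that level are the closer background, at 15.2% higher and 17.2% lower for M2 against M1, 15.9% and 17.8% for M2 against CD4, and 6.32% and 6.9% for CD4 against M1.

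Among the kinases that CD45 acts on, Lck, the kinase of the T cell receptor, was at 0.408 FPKM in M1, 209 in M2 and 0.214 in CD4. Fyn stood at 24.9, 84.4 and 14.4 FPKM. Both were highest in M2, where Ptprc was highest too. Lyn, a kinase used mainly by myeloid and B cells, was instead lowest in M2, at 118 FPKM in M1, 15.2 in M2 and 117 in CD4. Fgr, a kinase of myeloid cells, was at 80.1 FPKM in M1 and at only 6.03 in M2 and 6.90 in CD4. The highest Src kinase of the list was thus Lyn in M1 and in CD4 and Lck in M2.

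Csk, which adds the phosphate that CD45 removes, was at 55.7 FPKM in M1, 83.0 in M2 and 65.5 in CD4 and passed the size of 1 in no pair. With all rows it was at 92.8, 83.0 and 65.7 FPKM, so that M1 went from the lowest to the highest. Pag1, which anchors Csk at the membrane, was at 5.86, 13.9 and 5.50 FPKM. Ptprcap, whose product binds CD45 in lymphocytes, was at 151 FPKM in M2 and listed at 0 in M1 and CD4. Zap70, the kinase recruited after Lck, was at 56.7 FPKM in M2 and below 0.1 in both others. Of the related adaptors Skap1, a known substrate of CD45, and Skap2, Skap1 was at 99.9 FPKM in M2 against 0.0775 in M1 and 0.113 in CD4, and Skap2 was at 105 FPKM in M1, 3.68 in M2 and 96.4 in CD4. Lgals1, a lectin that binds CD45 sugars, was at 614, 255 and 727 FPKM in M1, M2 and CD4.

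Of 17 measured regulators of Ptprc splicing, 2 were higher and 1 lower in M2 than in M1 by a log2 ratio of at least 1, none was higher and 1 lower in M2 than in CD4, and none was higher and 1 lower in CD4 than in M1. The medians were 0.06, 0.23 and 0, against 0 for all genes. These counts are near or below the shares of genes with at least 10 FPKM given above, and nothing is read from them about the list. Psip1, whose product binds the splicing factor Srsf1, was at 16.5 FPKM in M1, 34.7 in M2 and 17.7 in CD4, and the splicing factor Srsf5 at 89.3, 183 and 98.0. Hnrnpl, whose product represses exon A, and Ptbp1, another splicing repressor, were at 65.3 to 69.4 FPKM and at 77.8 to 92.6 FPKM over the 3 libraries. Celf2, the gene lower in M2 than in both others, was at 6.37 FPKM in M1, 0 in M2 and 5.78 in CD4, and it is named here after its values were seen, as it did not reach 10 FPKM.

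Hnrnpll, which encodes the best known repressor of exons A, B and C, was at 13.6 FPKM in M1, 7.27 in M2 and 5.86 in CD4 in its complete rows. With all rows it was at 13.9, 36.3 and 10.2 FPKM, so that M2 went from lower than M1 to higher. With all rows Celf2 turned in the same way, to 12.3 FPKM in M2, and so did Srsf7, from 49.9, 32.1 and 35.3 FPKM in M1, M2 and CD4 to 101, 116 and 75.7. The counts for the list became 3 higher and none lower in M2 than in M1, and 3 higher and none lower in M2 than in CD4. With all rows, 18.4% of 8017 genes with at least 10 FPKM in either library were higher and 15.8% lower in M2 than in M1, and 19.3% of 8065 genes were higher and 16.4% lower in M2 than in CD4. The order of this list between M2 and the others therefore depends on the rows used.

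**Figure D4:**
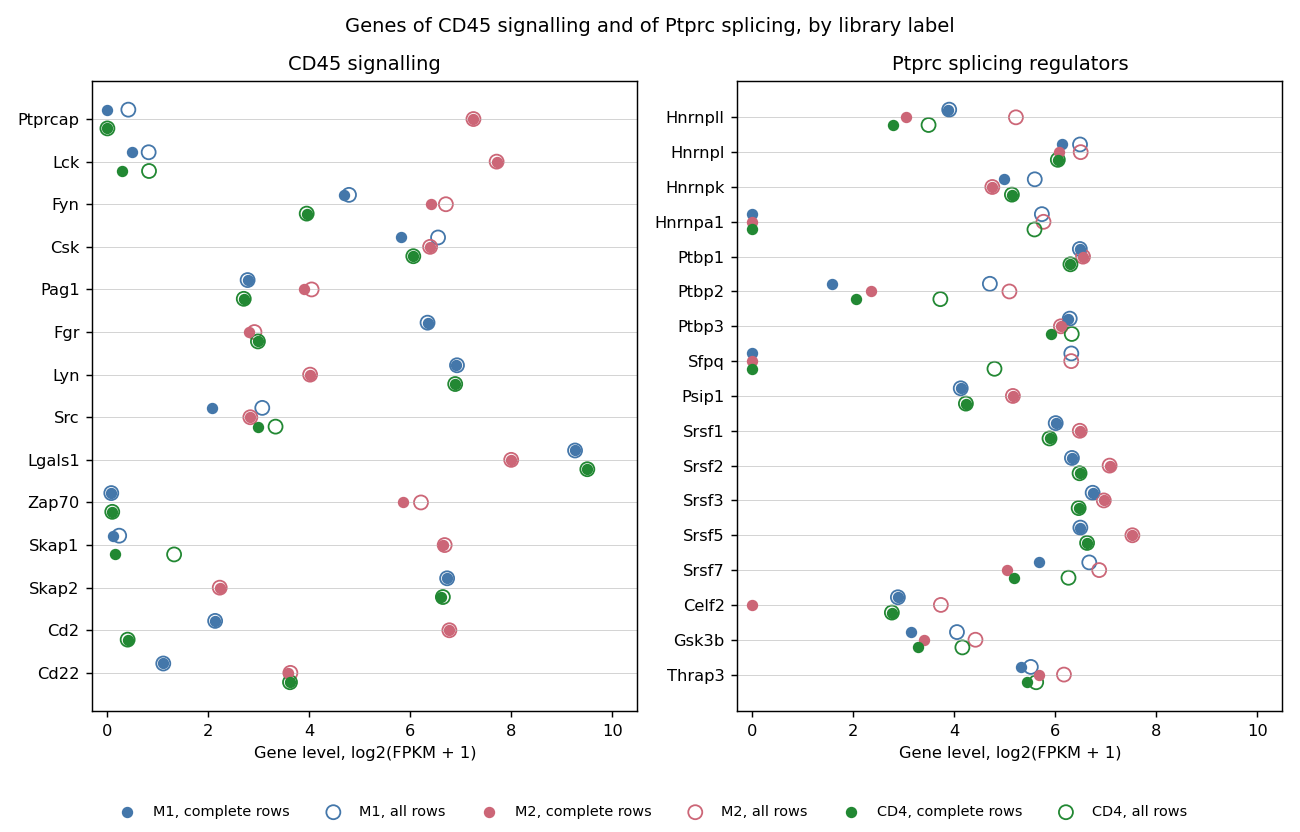
Gene level as log2(FPKM + 1) (horizontal axis) of 14 of the 15 genes of CD45 signalling and 17 regulators of Ptprc splicing in the libraries labelled M1, M2 and CD4, 1 library each. Filled points are sums of complete rows and open circles sums of all rows. In the first list Lck lies at 209 FPKM in M2 and 0.408 in M1, and in the second FPKM + 1 of 8 of the 17 genes (Hnrnpll, Hnrnpk, Hnrnpa1, Ptbp2, Sfpq, Srsf7, Celf2 and Gsk3b) is over 1.5 times higher in at least 1 library when all rows are used.

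Of 25 measured ligands and partners of CD44, none was higher and 7 were lower in M2 than in M1, where 5.73% and 4.9% of all genes and 15.2% and 17.2% of those with at least 10 FPKM were. Between M2 and CD4, 1 was higher and 8 were lower in M2, against 5.85% and 5.17% of all genes and 15.9% and 17.8% of those with at least 10 FPKM. Between CD4 and M1, 2 were higher and 5 lower in CD4, against 2.2% and 2.28%, and 6.32% and 6.9%. The medians were -0.29, -0.09 and 0. Of the 25 genes, 13 reached at least 10 FPKM in some library and 3 were listed at 0 in all, so neither background matches the list. With all rows the counts were 1 and 6, 2 and 9, and 1 and 5. The shares of genes with at least 10 FPKM were then 18.4% and 15.8%, 19.3% and 16.4%, and 6.93% and 7.23%. Spp1, which encodes the CD44 ligand osteopontin, was at 1182 FPKM in M1, 652 in M2 and 761 in CD4 and passed the size of 1 in no pair. Fn1, which encodes fibronectin, was at 558, 22.2 and 206 FPKM, and at 945 in M1 with all rows. Vcan, a proteoglycan that binds hyaluronan, was at 12.2 FPKM in M1 and 0.395 in M2 and was listed at 0 in CD4, and with all rows it was at 46.7, 0.591 and 1.61. Both genes and Cd44 were highest in M1.

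Cd74, which pairs with CD44 to form the receptor of the cytokine Mif, was at 4867 FPKM in M1, 374 in M2 and 2373 in CD4, while Mif itself was at 107, 108 and 75.4 FPKM. The proteases Mmp14 and Adam17, which can shed CD44 from the cell surface, were at 39.7 and 49.7 FPKM in M1, 2.97 and 20.9 in M2, and 54.2 and 55.7 in CD4. Of the proteins that link CD44 to the actin cortex, ezrin (Ezr) was at 43.6, 66.8 and 17.0 FPKM and moesin (Msn) at 283, 232 and 205. Ezr was the gene of the list that was higher in M2 than in CD4. Stab1, a scavenger receptor of macrophages, was at 37.9 FPKM in M1, 19.8 in M2 and 379 in CD4. The genes past the size of 1 that stayed below 10 FPKM were Hyal1, Hyal2, Lyve1 and Mmp9, named after their values were seen, with levels from 0 to 8.10 FPKM.

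Of 14 regulators of Cd44 splicing, 1 was higher and 1 lower in M2 than in M1, 2 were higher and 1 lower in M2 than in CD4, and none passed the size of 1 between CD4 and M1. The medians were 0.09, 0.16 and -0.06. These counts are near or below the 15.2% higher and 17.2% lower for M2 against M1, and the 15.9% and 17.8% for M2 against CD4, of genes with at least 10 FPKM. With all rows, 3 were higher and 1 lower in M2 against both M1 and CD4. Of genes with at least 10 FPKM, 18.4% were then higher and 15.8% lower in M2 against M1, and 19.3% and 16.4% against CD4. Nothing is read from these counts about the list. Ddx5, an RNA helicase, was at 206 FPKM in M1, 519 in M2 and 250 in CD4. Ybx1, an RNA-binding protein that favours inclusion of variable exons, was at 70.4, 25.2 and 65.9 FPKM, and with all rows at 230, 34.9 and 219. Tra2b, a splicing activator, was at 16.2, 32.7 and 14.4 FPKM, and with all rows, where it passed the size of 1 in no pair, at 36.7, 41.8 and 26.5. Khdrbs1, which encodes Sam68 and acts on exon v5, was at 35.4, 41.0 and 30.0 FPKM, and with all rows at 45.5, 193 and 35.9, where M2 was past the size of 1 against both others. Hnrnpm was at 112, 115 and 111 FPKM. Regulators of Cd44 splicing were therefore listed above 0 in all libraries, apart from Esrp1 and Esrp2.

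The genes whose pattern over the 3 libraries was closest to each gene were found among 6403 protein-coding genes with at least 10 FPKM in some library, by the distance between their centred log2(FPKM + 1). Over only 3 points such a likeness is a description. For Ptprc in complete rows, 14 genes lay within 0.1, and the 5 closest were Elovl5, Rpl23a, Cdkn2d, Arfgef1 and Itgal. With all rows Ptprc was at 193 FPKM in M1, 555 in M2 and 215 in CD4, a pattern to which these distances do not apply. Itgal, which encodes a chain of the leukocyte integrin LFA-1, was at 36.1 FPKM in M1, 57.1 in M2 and 23.7 in CD4, at a distance of 0.064. Elovl5, an enzyme of fatty acid elongation and the closest at 0.0213, was at 33.4, 48.6 and 21.1 FPKM. For Cd44, 8 genes lay within 0.1, with Csda the closest at a distance of 0.0315 and at 30.0 FPKM in M1, 12.3 in M2 and 17.0 in CD4. The next were Map2k3, Casp6, Pmvk and Homer1.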

How the data were processed

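RNA of sorted M1, M2 and CD4 T cells was sequenced, 1 library each. The authors aligned reads to mm9 with Bowtie and TopHat and estimated transcript levels with Cufflinks. Their processing notes also name Cuffdiff. The authors deposited FPKM values in 1 table of 135070 rows with a column for each library. All 3 columns were assigned by their headings. Of 92519 identifiers, 90430 had a complete row, and 88278 of these (97.6%) were found in the NCBIM37 annotation of GENCODE that matches Ensembl release 65. The study's methods name a later Ensembl release as the guide for Cufflinks. Any transcript of Ptprc or Cd44 that only the later release holds would be missing here.

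Gene levels are sums of FPKM over the annotated transcripts. Shares are percentages of that sum. Log2 ratios use FPKM + 1, which understates the change of low genes, and a size of at least 1 was counted. The share distance is the sum of absolute differences of the shares divided by 2. Variable exons were taken from the annotation, and 18 of 18 coding transcripts were identical to the genome sequence.

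The deposited FPKM values do not give the depth. It was estimated from the most frequent lowest value of FPKM times length over single-transcript coding genes of 2500 to 8000 bases (147, 129 and 152 values for M1, M2 and CD4). Fragment numbers and levels of 3 fragments are rough and cover counting error only.

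The members and the gene lists were chosen with earlier results of these data known. The genes named were Ptprc, Cd44, list members with at least 10 FPKM in a library, markers and the 5 closest genes, with exceptions said in the text. The levels of some list members are not reported here by themselves, and they are part of the list counts. The alternatives were the sum of all rows, the row with the highest mean, rescaled FPKM, coding transcripts only, shares of FPKM times length, a pseudocount of 0.1 and minimum levels. The calculations were tested on simulated data. Tables were handled with pandas 2.3.3 and numpy 2.4.6 in Python 3.11.15, and plots were drawn with matplotlib 3.10.9.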

Additional observations from a re-analysis of the deposited data

Results flagged for a closer look

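The rows of Ptprc-202 that were not complete lie outside the comparisons above and held a large level. They summed to 270 FPKM in the library labelled M2 and to 89.8 FPKM in that labelled CD4, while the single such row of M1 was listed at 0. Their exon content is not given in the table.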

How the results depend on the processing

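Of 441 values recomputed under another setting, 397 stayed within 1.5 times of the reported value, 44 moved further and 0 reversed under the criteria used, in which only a ratio that passed the size of 1 could reverse. Summing all rows of an identifier moved the Ptprc level to 555 FPKM in M2 and 215 in CD4, and its log2 ratio to 1.52 between M2 and M1 and to 0.15 between CD4 and M1. The share of Ptprc-202 became 48.7% in M2 and 41.8% in CD4, that of Ptprc-203 20.4% and 16.2%, that of Ptprc-204 22.5% and 42.0%, and that of Ptprc-205 8.32% in M2. If the further rows of Ptprc-202 held its annotated exons, exon A would then be in 48.7% of Ptprc in M2 and 41.8% in CD4. Exons B and C would each be in 57.0% and 41.8%. Taking the row with the highest mean gave Ptprc-202 a share of 15.8% in M2. On the same condition exon A would be in 15.8% and exons B and C in 29.5% there. The exon content of these rows is not known. No Cd44 level, ratio or share moved under any setting run. Most of this was fixed beforehand, since no Cd44 identifier had more than 1 row and 13 of the 14 transcripts were listed at 0. Only the rescaling and the pseudocount could change its levels or ratios. Its shares of 0% and 100% could not move, and they are counted among the 397.

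With a pseudocount of 0.1, 3798 genes were higher and 2728 lower in M2 than in M1, 3740 higher in M2 than in CD4, and 1647 higher and 1537 lower in CD4 than in M1, against 2110, 1806, 2156, 809 and 839. With at least 10 FPKM in either library, which was added after the values were seen, the counts were 1020, 1157, 1070, 1198 (lower in M2 than in CD4, against 1903), 381 and 416. With a minimum of 1 FPKM the leading transcript differed in 742 genes between M2 and M1, 773 between M2 and CD4 and 601 between CD4 and M1, and with all rows in 470, 452 and 385. A share distance of at least 0.5 was found in 333, 367 and 248 genes, and with all rows in 194, 180 and 119. With all rows summed, also added after the values were seen, the counts past the size of 1 stayed within 1.5 times. A pseudocount of 0.1 lets low genes reach a larger ratio, and the other settings change which genes and rows enter, by construction.

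No paired analysis was possible because each group had 1 library. The depth limits little for Ptprc and Cd44, which had at least 5140 estimated fragments in each library, but levels of single variants rest on how the model divided shared fragments, and that was not tested.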
